A study of Mus musculus with 18 samples.

Results

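The 78 microRNAs described here are the mature products of the Dlk1-Dio3 imprinted locus outside the anti-Rtl1 group, counted in mouse eye, lung and testicle. They were chosen by name: every listed mouse miRNA that carries the number of a hairpin known from the locus, from miR-770 to miR-3072, with any letter or arm suffix. This gave 78 of the 1431 miRNAs in the tables, 38 of them 5p arms and 40 of them 3p arms of 41 hairpins, and both arms were listed for 37 hairpins. Small RNA had been sequenced from the left and right eye, lung and testicle of male C57BL/6 mice aged 8 to 12 weeks, with no treatment or engineered allele named in the labels. The 18 libraries form 6 groups of 3, and each organ has 6 libraries when its sides are joined. Nothing states whether both sides of an organ were taken from 1 mouse, so n = 6 and the p-values between organs measure the spread between these libraries and may overstate the replication.

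Dlk1-Dio3 is an imprinted domain: the protein-coding genes Dlk1, Rtl1 and Dio3 are expressed from the paternal chromosome, and the noncoding RNAs Meg3, anti-Rtl1, Rian and Mirg, with the miRNAs that lie along them, from the maternal one. The miRNAs are abundant in the embryo, the placenta and, after birth, the brain, where the miR-379/miR-410 array is one of the largest placental-mammal miRNA clusters and several of its products, such as miR-134, act on dendrites and synapses. Each hairpin gives a 5p and a 3p arm, and the seed, bases 2 to 8 of the arm loaded into Argonaute, is the stretch that pairs with target mRNAs.

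All 41 hairpins lie on chromosome 12 of GRCm38.p6, between positions 109563692 and 109747960 (184.3 kb). The hairpins miR-770, miR-673, miR-493, miR-341 and miR-370, with 10 members, stand upstream of miR-379. The other 36 hairpins, with 68 members, form the miR-379/miR-410 array of 38.9 kb, from 109709060 to 109747960. By GENCODE M21, miR-770 overlaps an exon of Meg3 (109541001 to 109571726), miR-341 and miR-370 an intron of Rian (109603940 to 109661716), 9 hairpins an exon and 4 an intron of Mirg (109729764 to 109749460), and 25 no gene other than small RNA genes. MiR-299b is annotated on the strand opposite to the rest, antisense to miR-299a, and had 3 counts in all. The names therefore match the locus they were chosen for.

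A mature sequence was matched for 74 of the 78 members in RefSeq (GRCm38.p6). The names miR-485-5p, miR-539-3p, miR-376c-3p and miR-487b-3p had no match. Sequences are written 5′ to 3′ with the seed in capitals. The first set holds the 2 most abundant members in all 3 organs, with their 3p partners.

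miR-379-5p: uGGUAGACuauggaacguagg
miR-411-5p: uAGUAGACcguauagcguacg
miR-379-3p: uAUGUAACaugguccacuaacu
miR-411-3p: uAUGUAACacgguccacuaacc

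The second set holds members with a large eye excess: the arms of miR-770, which lies in Meg3, and miR-370-3p from Rian, followed by 4 arms from the array.

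miR-770-5p: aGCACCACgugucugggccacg
miR-770-3p: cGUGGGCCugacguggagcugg
miR-370-3p: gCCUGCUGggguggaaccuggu
miR-323-3p: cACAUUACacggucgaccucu
miR-495-3p: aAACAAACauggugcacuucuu
miR-668-3p: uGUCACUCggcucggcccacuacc
miR-369-5p: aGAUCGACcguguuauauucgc

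The third set holds members that were as abundant in the testicle as in the eye, or nearly so.

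miR-541-5p: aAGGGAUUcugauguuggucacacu
miR-409-3p: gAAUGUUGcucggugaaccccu
miR-496a-3p: uGAGUAUUacauggccaaucuc

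The last set holds the arms of hairpins whose 5p and 3p balance differed between organs, and the closely related pair of miR-300-3p and miR-381-3p.

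miR-543-5p: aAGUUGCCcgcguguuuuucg
miR-543-3p: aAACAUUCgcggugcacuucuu
miR-410-5p: aGGUUGUCugugaugaguucg
miR-410-3p: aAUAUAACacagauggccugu
miR-154-5p: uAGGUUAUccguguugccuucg
miR-154-3p: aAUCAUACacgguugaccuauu
miR-300-3p: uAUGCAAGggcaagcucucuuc
miR-381-3p: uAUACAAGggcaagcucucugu

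The members share few seeds despite their common origin. Only 6 seeds occurred in more than 1 member: AUGUAAC in miR-379-3p and miR-411-3p, GGUAGAC in miR-379-5p and miR-1193-5p, AGGUCAC in miR-370-5p and miR-1193-3p, AUGUGGG in miR-299a-3p and miR-299b-3p, GGUUGAC in miR-758-5p and miR-1197-5p, and GGUUGUC in miR-410-5p and miR-494-5p. The counts of such a pair were unequal, with 39090 counts over all libraries for miR-379-5p against 4 for miR-1193-5p and 461 for miR-379-3p against 83 for miR-411-3p. Several arms are near-identical, with or without a shared seed. Counting positions from 1 at the 5′ end, miR-381-3p differs from miR-300-3p by G4A, U21G and C22U, miR-495-3p from miR-543-3p by U6A, U7A, G9A and C10U, and miR-411-3p from miR-379-3p by U10C and U22C. How reads that fit both names were assigned is not given in the sources used here, so the split within such a pair is uncertain. The letters GGUNNAC (N is any base), a pattern chosen after the sequences had been seen and searched on the RNA strand alone, occurred in 8 of 37 matched 5p arms (21.62%), in 13 of 37 matched 3p arms (35.14%) and in 10 of 1135 other miRNAs (0.88%). It is the seed of miR-379-5p and lies behind the seed in miR-379-3p, miR-411-3p, miR-323-3p and miR-495-3p.

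Eye libraries held 2451484 to 2680204 counts, lung libraries 2538402 to 2790471 and testicle libraries 952608 to 1893132. The labelled organs matched their defining markers, given in counts per 1e6 (CPM) as ranges over 6 libraries. The photoreceptor and sensory miRNAs miR-183-5p, miR-182-5p and miR-96-5p summed to 108822 to 124738 CPM in the eye and at most 4699 in the other organs. The gonadal somatic miRNA miR-202 summed to 37875 to 46213 CPM over its arms in the testicle and at most 112.3 elsewhere, and the lung endothelial and epithelial list was highest in the lung (71586 to 82327 CPM). Within the lung, the pigment epithelium, lens and cornea list stood at 1790 CPM in right lung 1 and 798 CPM in left lung 2, against 210 to 311 CPM in the other 4 libraries. That list is not particular to the eye: it summed to 123165 to 135184 CPM there and to 14256 to 25667 CPM in the testicle. The photoreceptor and sensory list stood at 4699 CPM in right lung 1 and 4558 in left lung 2, against 2511 to 4301 in the other 4. In right lung 1 this rested on miR-183-5p (3258 CPM). MiR-182-5p (598.8 CPM) and miR-96-5p (842.1 CPM) were near the lowest lung values there (577.6 and 819.0 CPM). In left lung 2 these arms stood at 2063, 1550 and 944.7 CPM in the same order. Organs are mixtures of cells, and in such samples fewer cells of a type and less RNA per cell cannot be told apart.

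In the eye 77 of the 78 members had at least 1 count, and 64 had a count in every library. In the lung and in the testicle 70 members had a count, and 32 and 45 had one in every library. Together the members held 0.956% to 1.09% of all counts in the 6 eye libraries, with a mean of 1.02% ± 0.0548 (SD, n = 6). They held 0.300%, 0.430% and 0.437% in the left testicle libraries and 0.375%, 0.442% and 0.426% in the right ones (mean 0.402% ± 0.0555). They held 0.108%, 0.310% and 0.136% in the left lung libraries and 0.264%, 0.134% and 0.138% in the right ones (mean 0.182% ± 0.0839). The eye libraries all lay above the testicle and lung libraries, while left lung 2, at 0.310%, lay above left testicle 1, at 0.300%. Left lung 2 and right lung 1 had the largest share among the lungs. They also had the highest lung level of the pigment and lens list, which was high in the testicle too. The part of that list's cells in the result was not tested.

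**Figure D1:**
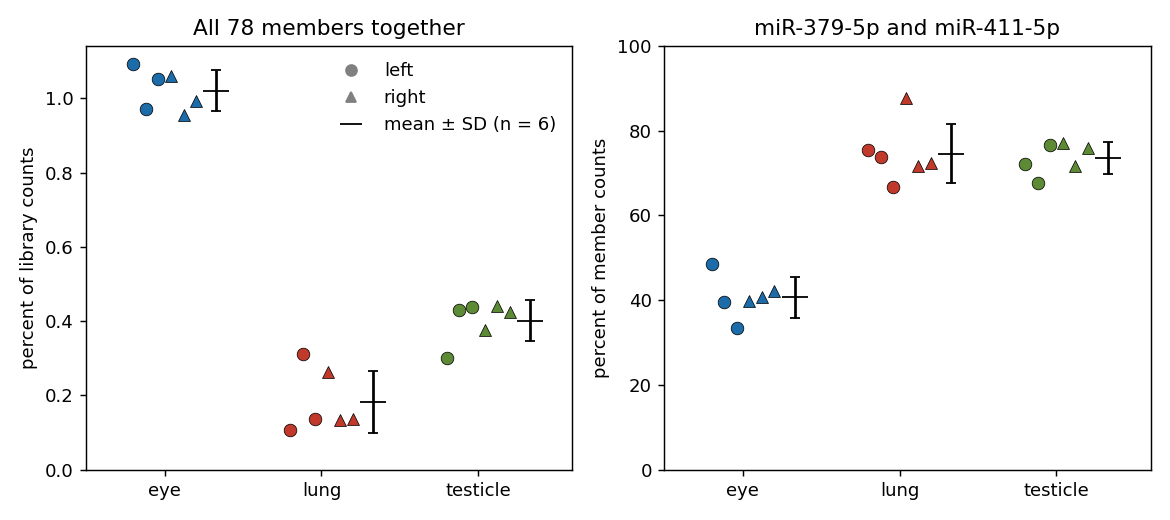
Left panel, percent of all counts of a library held by the 78 members; right panel, percent of these member counts on miR-379-5p and miR-411-5p. Each point is a library (circle left, triangle right) and each bar the mean ± SD of 6; the eye libraries lie highest on the left, at 0.956% to 1.09%, and lowest on the right, at 33.4% to 48.5%.

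The composition of this share differed between the organs. MiR-379-5p and miR-411-5p, neighbouring 5p arms at the start of the array, made up 33.4% to 48.5% of the member counts in the eye libraries. Among lung libraries they made up 66.6% to 87.6% and among testicle libraries 67.6% to 77.2%, with no overlap with the eye. The other 76 members summed to 5626 to 7015 CPM per eye library, 837 to 1395 CPM per testicle library and 265 to 809 CPM per lung library, so that the 3 organs did not overlap once this pair was set aside. Over pooled counts the 10 most abundant members held 78.4% of the eye's member counts, 91.3% of the lung's and 89.6% of the testicle's.

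Levels of single members are given below as CPM after trimmed-mean (TMM) scaling, as the lowest, median and highest of 6 libraries. Differences are log2 fold changes with their SE and the Benjamini-Hochberg adjusted p of edgeR's quasi-likelihood test over all tested miRNAs, with a call at 0.05. Of the 78 members, 55 passed the filter on low counts, among 642 of all miRNAs. The filter keeps a member that is high in 1 organ alone, and 27 of the 55 would not have passed in the lung or the testicle libraries on their own. Of the single-organ filters, 25 members passed that of the eye alone, so a high level in the eye brought many members into the test. Counts without this filter, over all 78 members, are therefore given beside the filtered ones.

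Against the lung, the eye held more of nearly every member that was measurable. Without the filter, 65 of the 78 members were called higher in the eye, 0 lower and 13 neither, where 20.1% of all 1431 miRNAs were called higher and 14.5% lower. With the filter, 55 of 55 were called higher and the background was 35.4% of 642. The 22 members that also pass the filter in the lung libraries alone were all called higher, with a median log2 fold change of 3.31, and the median over the 55 was 4.04 (1.61 to 8.08) against 0.00 over all tested miRNAs. In 60 of the 78 members the lowest eye library lay above the highest lung library, against 16.6% of all miRNAs, and in 0 members every eye library lay below every lung library, against 8.18%. With right lung 1 and left lung 2 left out of the fit, 55 of 57 members tested were called higher, with a median of 3.66. Marker lists of other cell types also differed between the organs. The neural list, miR-124-3p and 5 more, summed to 41193 to 70071 CPM per eye library, 2242 to 3545 per testicle library and 90.2 to 358.7 per lung library. The striated muscle list summed to 4517 to 10916, 534 to 895 and 58.2 to 646.9 CPM in the same order. Not every miRNA of these lists was highest in the eye. In the neural list miR-128-3p stood at 557.9 to 641.6 CPM in the eye and 663.1 to 826.2 in the testicle. In the muscle list miR-208a-3p was at most 0.4 CPM in the eye, against up to 39.1 in the lung. MiR-208b-3p was at most 6.0 CPM in the eye, against up to 15.8 in the lung. The other miRNAs of both lists were highest in the eye. The part of these lists in the eye excess was not tested.

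MiR-411-5p, the most abundant member, had the smallest eye excess of the 55. It stood at 2018, 2688 and 3384 CPM in the eye and at 465, 600 and 1715 CPM in the lung, without overlap. Its log2 fold change was 1.61 (SE 0.31, adjusted p 0.00013). MiR-379-5p stood at 957, 1395 and 1705 CPM in the eye and at 204, 301 and 604 CPM in the lung, a log2 fold change of 1.91 (SE 0.28, adjusted p 6.9e-06). The members that follow in order of eye level were further apart. MiR-369-5p, a 5p arm from near the end of the array, stood at 608, 946 and 1137 CPM in the eye against 27.7, 33.1 and 79.2 in the lung, a log2 fold change of 4.36 (SE 0.31, adjusted p 4e-10). MiR-376a-3p, an arm known for adenosine-to-inosine editing in the brain, stood at 365, 524 and 709 CPM against 4.63, 24.1 and 61.5 (log2 fold change 4.29, SE 0.45, adjusted p 1e-07). MiR-410-3p, the last abundant arm of the array, stood at 341.01, 390 and 415 CPM against 6.90, 13.9 and 21.7 (log2 fold change 4.72, SE 0.27, adjusted p 2.9e-11). In each of these 3 the eye libraries lay far above every lung library.

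Other abundant arms of the array fell in the same range. MiR-381-3p stood at 353, 427 and 466 CPM in eye libraries and at 9.65, 23.5 and 58.7 in lung libraries (log2 fold change 4.03, SE 0.34, adjusted p 4.3e-09). MiR-382-5p stood at 203, 384 and 481 CPM against 13.8, 16.9 and 28.6 (log2 fold change 4.19). MiR-300-3p stood at 252, 365 and 412 CPM against 5.41, 20.6 and 47.1 (log2 fold change 4.04). MiR-154-5p, whose name the miR-154 family carries, had a smaller difference, with 338, 369 and 429 CPM in the eye against 36.2, 52.9 and 107 in the lung (log2 fold change 2.69, SE 0.27, adjusted p 4e-08). MiR-485-5p, which is known to act on the synaptic vesicle protein SV2A, stood at 283, 340 and 389 CPM against 9.44, 13.8 and 38.6 (log2 fold change 4.15). MiR-134-5p, known for its target Limk1 in dendritic spines, was less abundant, at 50.2, 71.4 and 82.9 CPM in eye libraries and 1.82, 7.78 and 18.7 in lung libraries (log2 fold change 3.07, adjusted p 1.6e-06). None of these had an eye library below a lung library.

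**Figure D2:**
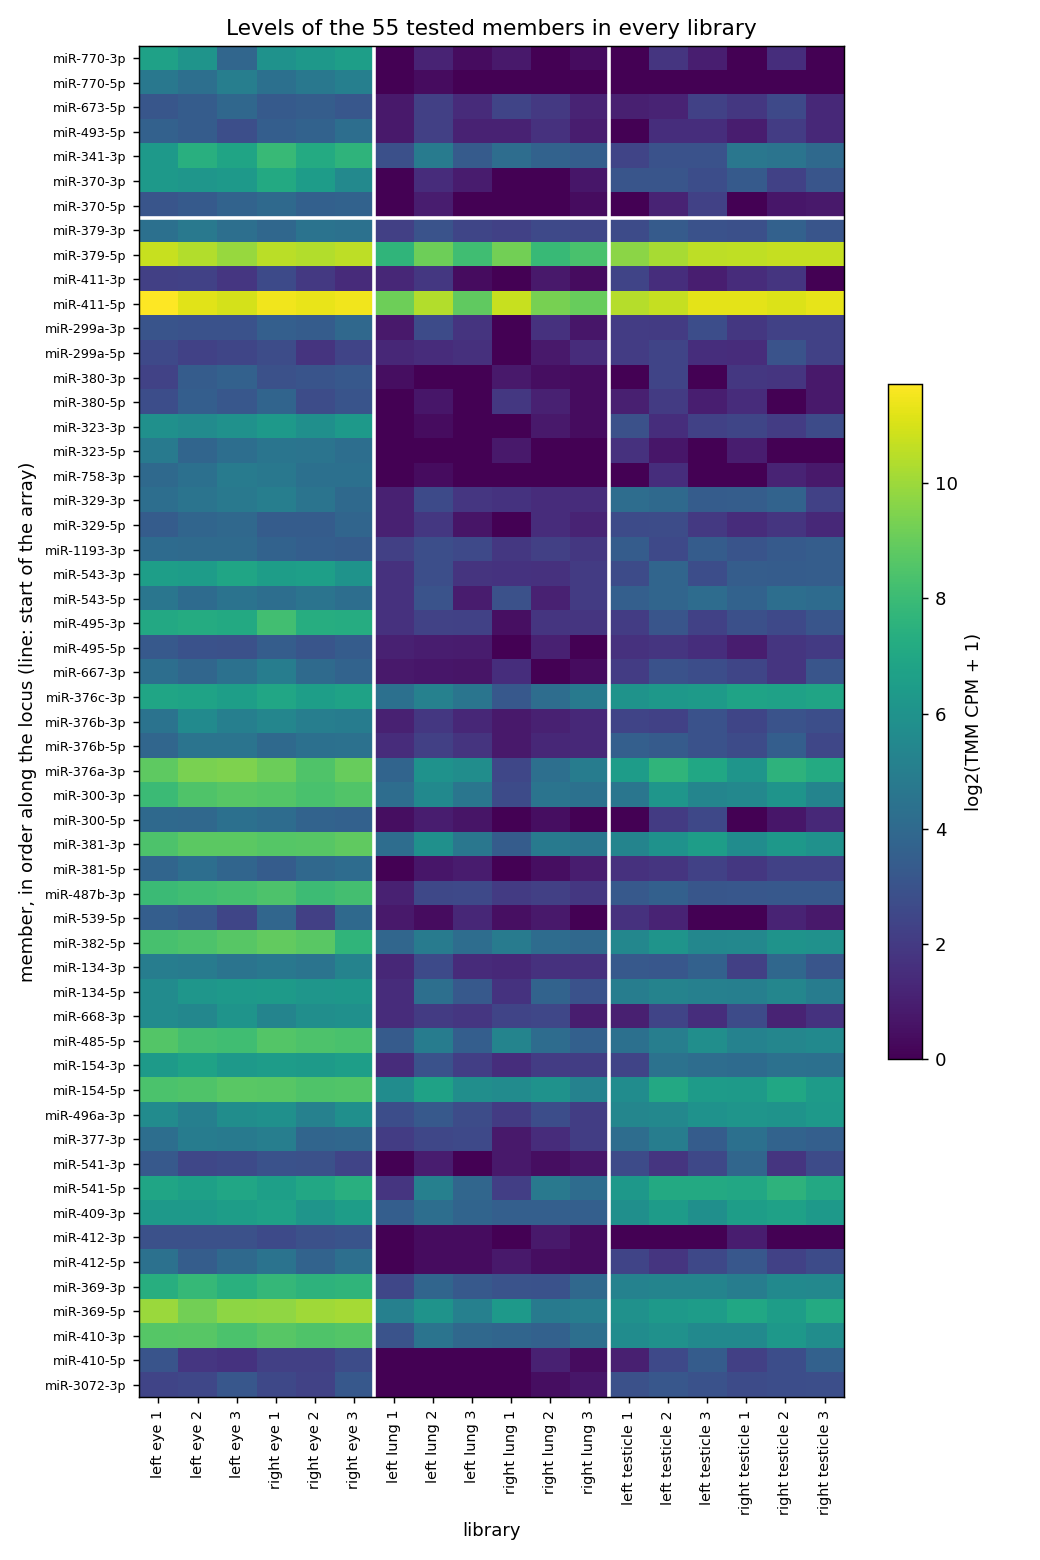
Level of the 55 tested members in all 18 libraries as log2(TMM-scaled CPM + 1), in order along the locus, with lighter colours for higher levels and white lines between the organs and at the start of the array. MiR-379-5p and miR-411-5p are bright in all 3 organs, while miR-770, miR-323-3p and miR-758-3p are dark in nearly every lung library.

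Several members with a wide gap had few or no counts per lung library. MiR-323-3p stood at 49.4, 59.9 and 79.2 CPM in the eye, and the 6 lung libraries held 4 counts between them, with at most 0.72 CPM in any one (log2 fold change 7.97, SE 0.44, adjusted p 1.6e-11). MiR-370-3p, from the Rian intron, stood at 45.6, 78.1 and 138 CPM in eye libraries and at 0.00, 0.30 and 1.83 in those of the lung (log2 fold change 7.29, SE 0.51). MiR-487b-3p stood at 253, 287 and 347 CPM against 1.09, 3.34 and 4.99 (log2 fold change 6.39, SE 0.30, adjusted p 1.8e-12). MiR-323-3p and miR-370-3p lay near or under the floor of 3 counts in the lung, which is 1.08 to 1.18 CPM per library, while miR-487b-3p had counts in all 6 lung libraries.

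MiR-495-3p, known for targeting Bdnf, stood at 135.6, 151 and 288 CPM in the eye, with right eye 1 highest, and at 0.39, 2.49 and 3.97 in the lung (log2 fold change 6.06, SE 0.35). Both arms of miR-770, whose hairpin lies in an exon of Meg3, were at or near the floor in most lung libraries. MiR-770-3p stood at 13.6, 70.7 and 103 CPM in the eye, with left eye 3 lowest, and at most at 1.22 CPM in the lung (log2 fold change 7.15, SE 0.66). MiR-770-5p stood at 18.6, 25 and 32 CPM in the eye with 399 counts, against 1 count over the lung libraries, a ratio of 418 with a 95% exact interval of 74.6 to 16550. Among the other members with over 30 eye counts, 4 had 1 to 3 counts over the lung. The ratio of eye to lung was 352 for miR-758-3p (62.7 to 13943), 166 for miR-323-5p (45.6 to 1377), 31.8 for miR-3072-3p (10.5 to 157) and 14.7 for miR-409-5p (4.7 to 74). These intervals cover counting error only, and each lies above 1.

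Against the testicle, the eye excess was smaller and fewer members showed it. Without the filter, 45 of 78 members were called higher in the eye and 0 lower, where 20.8% of all miRNAs were called higher and 22.2% lower. With the filter, 42 of 55 were called higher, 0 lower and 13 neither, against a background of 39.9% higher and 38.9% lower. The median log2 fold change of the 55 was 2.00 (-0.55 to 8.86), against 0.05 over all tested miRNAs. Of the 27 members that pass the filter in the testicle libraries alone, 19 were called higher, with a median of 1.97. In 43 of the 78 members every eye library lay above every testicle library, against 17.2% of all miRNAs, and in 0 members every eye library lay below, against 17.3%.

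Among members with a mean of at least 50 CPM in the eye, miR-770-3p, miR-487b-3p, miR-495-3p, miR-668-3p and miR-323-3p had the largest differences. MiR-770-3p was at 0.00, 0.48 and 2.49 CPM in the testicle (log2 fold change 6.04, SE 0.67, adjusted p 1.5e-07). MiR-770-5p had 0 counts in the testicle and was at least 77.1-fold higher in the eye, taking 3 counts over the 6 testicle libraries as the floor. MiR-487b-3p was at 7.73, 8.32 and 11.2 CPM (log2 fold change 5.05, SE 0.28, adjusted p 1.3e-11). MiR-770 is thus a hairpin whose products were near or under the floor outside the eye. MiR-495-3p was at 3.22, 5.70 and 7.59 CPM in the testicle (log2 fold change 4.88, SE 0.33, adjusted p 2e-10). MiR-668-3p was at 38.6, 52 and 66.7 CPM in eye libraries and 1.07, 2.10 and 5.40 in testicle libraries (log2 fold change 4.2, SE 0.40, adjusted p 1.6e-08). MiR-323-3p was at 1.87, 4.18 and 6.44 CPM in the testicle (log2 fold change 3.95, SE 0.34, adjusted p 3.9e-09). No testicle library reached an eye library in these 5 arms or in miR-770-5p. Among scarcer members, miR-412-3p had 1 count over the testicle libraries, a ratio of eye to testicle of 58.6 (10.3 to 2336), and miR-323-5p had a log2 fold change of 5.25.

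Abundant arms of the array lay between these and no difference. MiR-369-5p was at 60.1, 89.4 and 142 CPM in the testicle, a log2 fold change of 3.28 (SE 0.29, adjusted p 7.1e-09). MiR-381-3p was at 37.6, 61.1 and 89.8 CPM (log2 fold change 2.74), miR-410-3p at 46.4, 51.8 and 75.2 CPM (2.79) and miR-382-5p at 41.5, 52.4 and 65.4 CPM (2.77). MiR-300-3p was at 23.6, 41.4 and 70.4 CPM, with a log2 fold change of 2.89 (SE 0.35, adjusted p 5e-07). These 5 arms, of both the 5p and the 3p kind, differed by a similar amount. MiR-154-5p was at 50.4, 85.8 and 134 CPM (log2 fold change 2.00) and miR-376a-3p at 69.3, 134 and 202 CPM (1.97). MiR-134-5p was at 29.6, 33.1 and 40.2 CPM, with a log2 fold change of 1.06 (adjusted p 0.015), a smaller difference than in the other arms of this paragraph.

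The 13 tested members with no call between eye and testicle include the most abundant ones. MiR-379-5p stood at 822, 1548 and 1642 CPM in the testicle, and its log2 fold change was 0.00 (SE 0.27, adjusted p 0.99). MiR-411-5p stood at 1384, 2285 and 2507 CPM (log2 fold change 0.36, SE 0.30, adjusted p 0.28). Both overlapped the eye libraries with TMM scaling. With library totals alone miR-379-5p still overlapped and miR-411-5p did not, with every eye library higher. MiR-541-5p stood at 97.8, 119.8 and 167 CPM in eye libraries and 74.1, 136.2 and 187 in testicle libraries (log2 fold change -0.12, SE 0.44). MiR-376c-3p stood at 94.9, 109 and 119.9 CPM on the eye side of the comparison and 63.3, 93.2 and 115 on the testicle side (0.26, SE 0.23). MiR-409-3p stood at 69.3, 85.6 and 104 CPM in eye libraries and 56.9, 81 and 104 in testicle libraries (0.14, SE 0.19). MiR-496a-3p stood at 32.7, 51.2 and 58.8 CPM in eye libraries and 40.8, 62.5 and 81.3 in testicle libraries (-0.31, SE 0.22). These 4 arms overlapped between the organs with TMM scaling, and miR-376c-3p did not with library totals alone, where every eye library was higher.

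The order of the members within an organ differed accordingly. By mean level, miR-541-5p ranked 15 of 78 in the eye and 4 of 78 by testicle levels, miR-496a-3p 25 and 10, and miR-409-3p 19 and 8. MiR-487b-3p went the other way, from 11 in the eye to 24 in the testicle, and miR-495-3p from 13 to 32. MiR-369-5p kept a similar place, at 3 and 5. The absence of a call depended on the scaling for some: miR-376c-3p was called higher in the eye with upper quartile scaling (log2 fold change 0.59) and with left lung 1 as the TMM reference (0.76). MiR-409-3p was called under the same settings (0.47 and 0.66), and miR-411-5p with left lung 1 as the reference (0.86). Conversely, miR-496a-3p was called lower in the eye (-0.59) with a filter of 50 counts in 6 libraries.

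**Figure D3:**
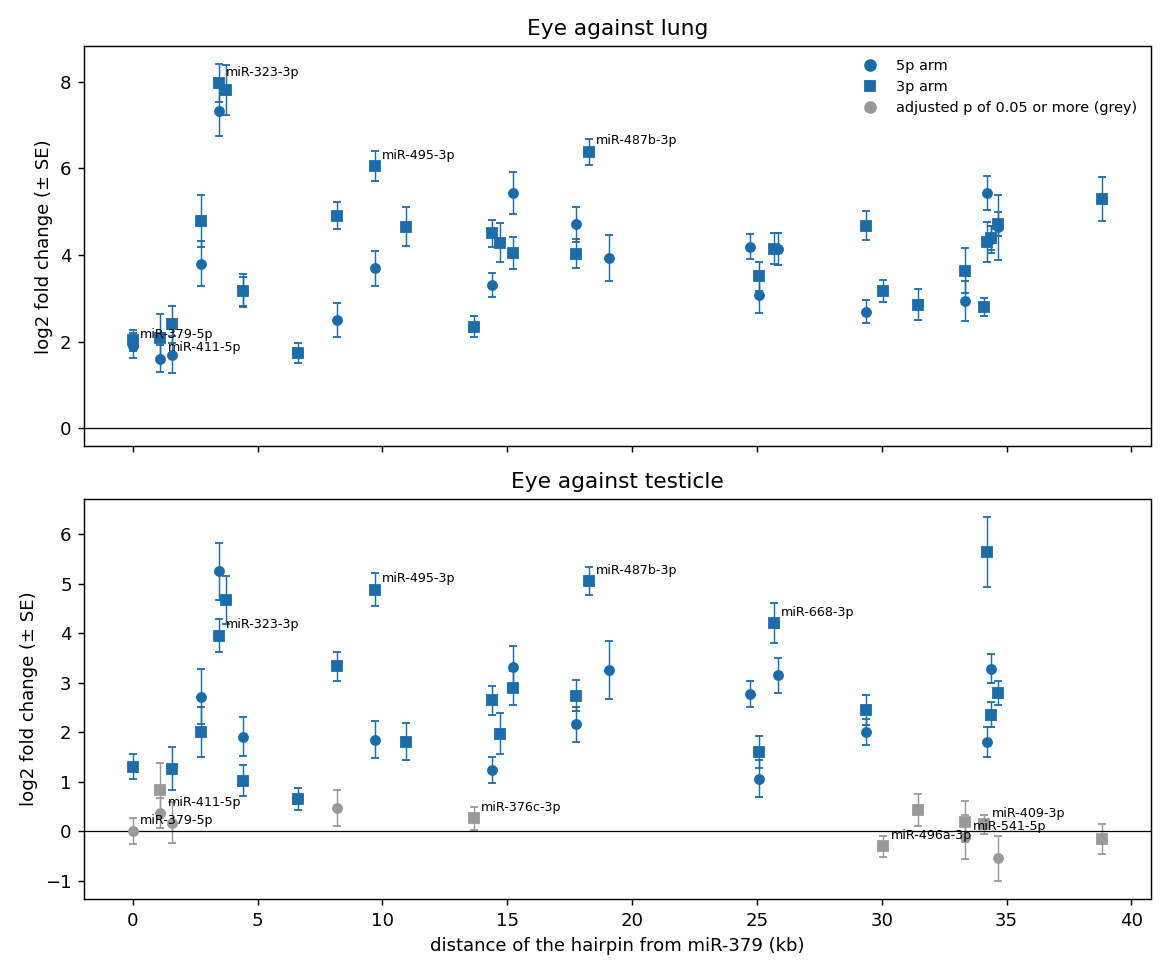
Log2 fold change (± SE) of each tested array member, eye against lung above and eye against testicle below, by the distance of its hairpin from miR-379 in kb, with circles for 5p arms, squares for 3p arms and grey for an adjusted p of 0.05 or more. Against the lung 48 of 48 points are coloured, and against the testicle 13 are grey, 4 within the first 2 kb and 7 from 30 kb on.

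By position, the 7 tested members upstream of miR-379 were all called higher in the eye than in the testicle, with a median log2 fold change of 3.59 (1.92 to 8.86). In the array it was 35 of 48, with a median of 1.94 (-0.55 to 5.64). Without the filter these counts were 8 of 10 and 37 of 68. The upstream arms include miR-341-3p, from the Rian intron, at 81.1, 155 and 242 CPM in eye libraries and 4.29, 11 and 24.3 in testicle libraries (log2 fold change 3.77, SE 0.36, adjusted p 1.8e-08). Its eye libraries all lay above its testicle libraries. Within the array the uncalled members were not spread evenly. Of the 6 tested arms of miR-379, miR-411 and miR-299a, which lie in the first 2 kb, 4 had no call and the median log2 fold change was 0.59. From miR-496a to miR-3072, 30.1 to 38.8 kb from miR-379, 7 of 12 tested members had no call (median 0.30), among them both arms of miR-541, miR-377-3p (0.42) and miR-3072-3p (-0.16). Over the 30 tested members in between, 28 were called higher in the eye and the median was 2.54, and the exceptions were miR-543-5p and miR-376c-3p. The 6 arms of the first 2 kb also had small differences from the lung, with log2 fold changes of 1.61 (miR-411-5p) to 2.4 (miR-299a-3p). These segments were set after the values had been seen, and differences between them, or between the upstream hairpins and the array, were not tested. The anti-Rtl1 miRNAs are made from the strand opposite to Rtl1, which lies between the upstream hairpins miR-493 and miR-341. With the filter, 12 of 12 tested were called higher in the eye against the testicle (median 2.51) and 12 of 12 against the lung (median 3.38). Without the filter it was 14 of 19 and 15 of 19, where 20.8% and 20.1% of all miRNAs were called higher. Of the 3 further miRNAs of the locus 1 was tested, and it was called higher in the eye in both comparisons (log2 fold change 4.01 and 4.45). Without the filter all 3 were called higher in both.

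How many array members were called lower in the lung than in the testicle depended on the scaling. It was 42 of 48 with TMM and 21 of 48 with upper quartile scaling. With TMM, the median log2 fold change of lung over testicle was -0.90 over all tested miRNAs, and the members are read against that shift. The member median was -1.90 (-5.46 to 1.34). In the lung 43 of 55 members were called lower, 0 higher and 12 neither, against a background of 48.9% lower and 27.3% higher. Without the filter it was 45 of 78 lower, against 27.6% of all miRNAs. With upper quartile scaling, which sets the median of all tested miRNAs at 0.17, 22 of 55 members were called lower and 2 higher. The member median was -0.79. Of all 642 tested miRNAs 227 were called lower and 273 higher, so the share of members called lower was near the background. In 23 of 78 members every lung library lay below every testicle library, against 19.4% of all miRNAs, and in 0 members every lung library lay above, against 9.22%.

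Among members with a mean of at least 50 CPM in the testicle and no overlap, 5 had the widest gaps to the lung, and 4 of these had no call between eye and testicle. MiR-496a-3p stood at 3.09, 5.67 and 8.56 CPM in the lung (log2 fold change -3.49, SE 0.25, adjusted p 5.5e-10). MiR-541-5p stood at 2.54, 15.2 and 33 CPM in the lung (-3.05, SE 0.48, adjusted p 1.4e-05). MiR-409-3p stood at 10.2, 10.8 and 18 CPM in the lung (-2.67, SE 0.21, adjusted p 1.5e-09). Their lung libraries all lay below their testicle libraries. MiR-376a-3p (-2.32, SE 0.42) and miR-376c-3p (-2.09, SE 0.24) followed, with miR-376c-3p at 8.50, 20.9 and 34.5 CPM in the lung. MiR-379-5p was lower in the lung by a log2 fold change of -1.90 (SE 0.28, adjusted p 6.4e-06) and miR-411-5p by -1.25 (SE 0.31, adjusted p 0.0011), the latter with right lung 1 inside the range of the testicle. The call of miR-411-5p was lost with upper quartile scaling (-0.09, adjusted p 0.84) and with left lung 1 as the TMM reference (-0.69, adjusted p 0.053). MiR-3072-3p had 3 counts over the lung libraries, and the ratio of testicle to lung was 29.5 (9.5 to 148).

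Some members lay near the median shift or above it. MiR-369-5p (-1.09) and miR-154-5p (-0.68, adjusted p 0.02) were called lower with TMM, yet with upper quartile scaling their values were 0.08 and 0.44 and neither was called. MiR-381-3p (-0.20), miR-382-5p (-0.27) and miR-300-3p (-0.05) also lost their calls with that scaling. MiR-668-3p stood at 0.92, 2.85 and 4.68 CPM in the lung against 1.07, 2.10 and 5.40 in the testicle (0.05, adjusted p 0.94). MiR-341-3p stood at 6.17, 11.2 and 28.7 CPM in the lung (0.32, SE 0.34, adjusted p 0.40). Both overlapped the testicle libraries. Of the 7 tested members upstream of miR-379, 1 was called lower in the lung, miR-370-3p (-3.70, SE 0.56, adjusted p 7.9e-06), and in the array 42 of 48. Without the filter it was 1 of 10 and 44 of 68. With upper quartile scaling it was 1 of 7, with 1 called higher, and 21 of 48. Several upstream arms had few counts in both organs, such as miR-770-3p with 8 in each, which limits a call.

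Enrichment was called at a log2 fold change of at least 1 against both other organs. Without the filter, 43 of 78 members were enriched in the eye, against 13.8% of all 1431 miRNAs, and 42 were depleted in the lung, against 8.74%. With the filter these counts were 41 of 55 (25.7% of all 642 tested miRNAs) and 40 of 55 (18.1%), which hold the members that passed through the eye alone. By the same rule 0 of the 55 were enriched in the lung (11.5% of all) or the testicle (29.0%), and 0 were depleted in the eye (10.4%) or the testicle (11.4%). Depletion in the lung rests in part on the lung and testicle contrast, where the median over all tested miRNAs with TMM was already -0.90. With upper quartile scaling 22 members were called lower in the lung than in the testicle, against 43 with TMM. Of all 642 tested miRNAs 227 were called lower in the lung with upper quartile scaling, against 314 with TMM.

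The balance of the arms was described for each hairpin as the percent of its counts on the 5p arm. In the eye the 3p arm was the more abundant in 24 of the 37 hairpins with both arms listed and the 5p arm in 13. Differences between organs were tested on the log2 ratio of the arms by an exact two-sided permutation test over all splits of 6 against 6 libraries, in which the smallest p is 0.00216, with adjustment over 191 hairpins of the whole table. Of 19 hairpins of the locus tested, 8 differed between eye and testicle (35.1% of all 191), 6 between eye and lung (14.1%) and 4 between lung and testicle (26.2%). Low counts affect this ratio. In a second test, chosen after the data had been seen, the percent on the 5p arm was compared in hairpins with at least 10 counts in every library compared. This gave 6 of 11 hairpins (28.2% of all), 2 of 7 (11.0%) and 3 of 7 (26.1%).

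In percentage points, miR-543 had the largest shift that passed on both measures. Its 5p arm took 15.2% to 22.1% of the hairpin's counts in the eye libraries (17.9% ± 2.73, SD, n = 6) and 50% to 73.9% in the testicle libraries (61.9% ± 8.70), with no overlap (exact permutation p 0.00216, adjusted p 0.0134). Pooled over 6 libraries, the arms had 315 counts (5p) and 1479 counts (3p) in eye libraries, and 110 and 71 in testicle libraries. The lung's pooled counts were 62 and 56, and the libraries ranged from 27.3% to 73.9%. In levels, miR-543-3p was higher in the eye than in the testicle by a log2 fold change of 3.33 (SE 0.29, adjusted p 4.6e-09). MiR-543-5p, at 16, 19.7 and 23.3 CPM in eye libraries and 10.7, 14.5 and 17.9 in testicle libraries, was not called (0.47, SE 0.36, adjusted p 0.25). As printed above, the 3p arm differs from miR-495-3p by 4 bases, and reads were assigned between them by a procedure that is not known here.

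MiR-410 moved in the same direction from a lower base. Its 5p arm took 0.638% to 1.80% of the hairpin's counts in the eye (1.06% ± 0.457) and 2.08% to 17.6% in the testicle (9.80% ± 6.26; exact permutation p 0.00216, adjusted p 0.0134), so that miR-410-3p remained the main arm in every library of both. MiR-376b went from 36.1% ± 5.56 in the eye to 58.3% ± 11.6 in the testicle (adjusted p 0.0134 by the same exact permutation test). The difference was in the opposite direction for miR-369, at 81.9% ± 4.91 against 70.5% ± 6.71 (adjusted p 0.0461). Smaller differences passed for miR-379, at 98.6% ± 0.393 against 99.4% ± 0.158 (adjusted p 0.0134), and miR-381, at 3.28% ± 0.557 against 4.88% ± 0.818 (adjusted p 0.0205). The main arm of miR-379 and of miR-381 was the same in both organs.

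MiR-154 differed between the lung and both other organs. Its 5p arm took 77.2% to 84.8% in the eye (81.0% ± 2.53) and 91.5% to 96.6% in the lung (94.5% ± 1.85), with no overlap (exact permutation test, adjusted p 0.0241). The testicle libraries lay at 82.0% to 92.2% (85.7% ± 3.69), lower than the lung (adjusted p 0.0246). The 3p arm stood at 77.1, 86.1 and 108 CPM in eye libraries, 1.82, 3.30 and 6.73 in lung libraries and 4.29, 18.2 and 20.6 in testicle libraries. MiR-300 also passed between eye and lung, with 4.13% ± 0.880 against 1.35% ± 1.07 on its 5p arm (adjusted p 0.0241). Between lung and testicle miR-381, at 1.63% ± 1.69 against 4.88% ± 0.818 (adjusted p 0.0246), and miR-379 (adjusted p 0.041) passed as well. With a pseudocount of 5 in the log2 ratio the difference of miR-381 was -0.38 (adjusted p 0.422) and no longer called. The other called hairpins passed on the log2 ratio alone: miR-495, miR-543, miR-370 and miR-376b between eye and lung, miR-495 and miR-412 between eye and testicle, and miR-412 between lung and testicle. They had fewer than 10 counts in at least 1 library compared and were not in the second test.

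**Figure D4:**
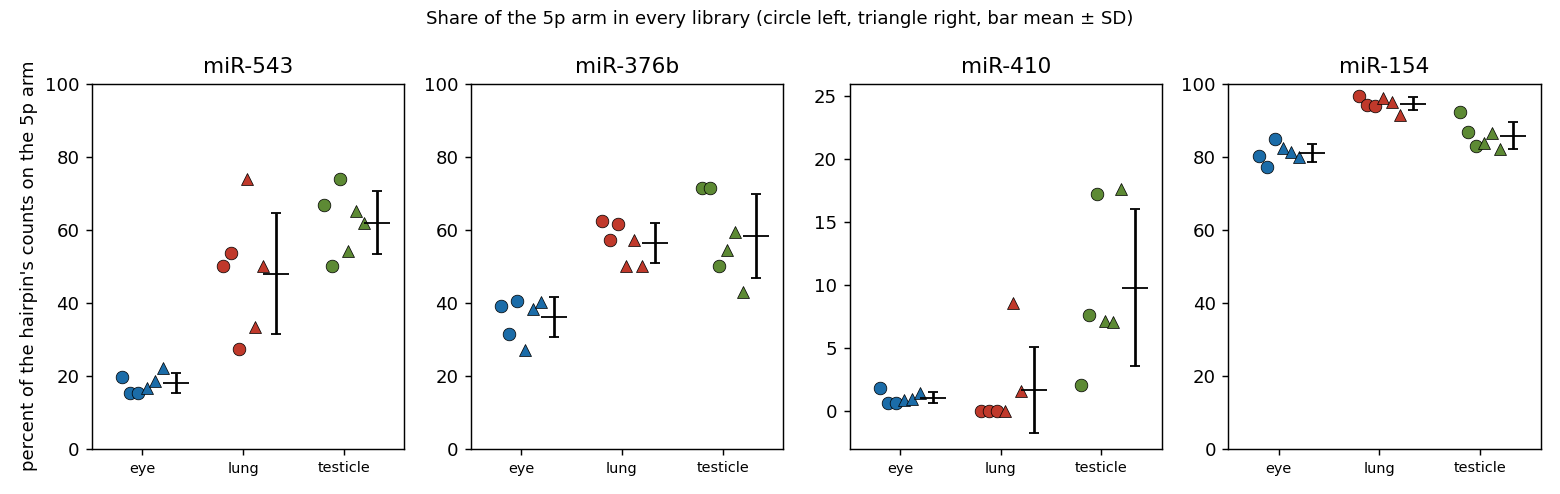
Percent of a hairpin's counts on the 5p arm in each library (circle left, triangle right) for miR-543, miR-376b, miR-410 and miR-154, with the mean ± SD of 6 libraries per organ and a narrower axis for miR-410. For miR-543 the eye libraries lie at 15.2% to 22.1% and the testicle libraries at 50% to 73.9%, while the lung libraries, on few counts, lie at 27.3% to 73.9%.

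The members varied most among the lung libraries. Over members with a mean of at least 50 counts, the median coefficient of variation of the 6 libraries was 19.8% among eye libraries (34 members), 25.7% among testicle libraries (13) and 54.2% among lung libraries (10). Over all miRNAs at that depth it was 17%, 21.9% and 32.9%. In the testicle, left testicle 1, the library with the smallest total, was lowest in 10 of the 13. That library and right testicle 1 also had the lowest sums of the red cell list, at 229.9 and 261.6 CPM against 4559 to 8172 CPM in the other 4. The part of these values in the members' spread was not tested.

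In the lung, 16 members had at least 100 counts. Left lung 2 was above the lung median in 16 of 16 and highest in 12, and left lung 1 was below it in 16 of 16. Right lung 1 did not follow 1 direction: it was highest in 3 members and lowest in 5. It held 1710 CPM (scaled to library totals) of miR-411-5p, 78.9 of miR-369-5p and 38.5 of miR-485-5p, the highest lung values of each. It held 4.6 CPM of miR-376a-3p, 5.4 of miR-300-3p, 9.6 of miR-381-3p and 8.5 of miR-376c-3p, the lowest of each. The abundance of members of the same array thus differed in opposite directions in this library. Left lung 2 and right lung 1 had the highest pigment and lens sums among the lungs, given above, and the highest sums of the neural list (358.7 and 244.1 CPM, against 90.2 to 189.9 in the others). Left lung 2 shared a high striated muscle list (646.9 CPM) with left lung 3 (563.0) and right lung 3 (613.0), against 58.2 to 117.4 CPM in the other 3. The heart miRNA miR-208a-3p stood at 20.2, 39.1 and 16.5 CPM in these 3 libraries and at most at 0.8 CPM in the others, right lung 1 among them. In that list miR-1a-3p and miR-133a-3p split the libraries in the same way, and miR-208b-3p, miR-206-3p and miR-133b-3p did not. MiR-208b-3p stood at 9.5 CPM in left lung 2, against 10.4 in left lung 1 and 13.8 in right lung 2. The part of such tissue in the members' levels was not tested. The counts without left lung 2 and right lung 1 are given above.

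**Figure D5:**
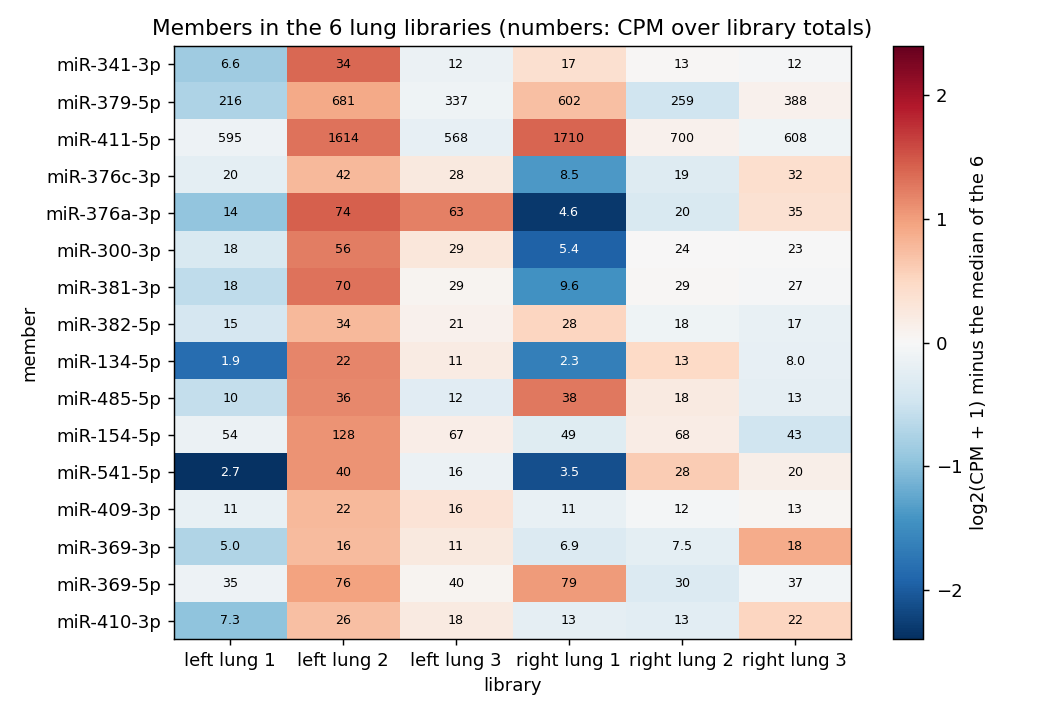
Level of the 16 members with at least 100 lung counts in each of the 6 lung libraries: the number is CPM over the library total and the colour the log2(CPM + 1) minus the median of the 6 (red above, blue below). Left lung 2 is above the median in 16 of 16 and left lung 1 below it in 16 of 16, while right lung 1 is red for miR-411-5p, miR-369-5p and miR-485-5p and blue for miR-376a-3p and miR-300-3p.

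The sides were compared organ by organ, 3 libraries against 3, and over all 18 libraries with organ as a term. No member was called in any of these 4 comparisons by edgeR or by DESeq2 at an adjusted p of 0.05, and 0.0% of all tested miRNAs were called by edgeR. At an unadjusted p under 0.05, edgeR gave 3 of 53 tested eye members (3.70% of all tested miRNAs), 0 of 22 lung members (0.233%), 1 of 27 testicle members (7.11%) and 2 of 55 over the organs (5.30%), and DESeq2 gave 1, 0, 1 and 3. The median log2 fold change of left over right was -0.05 for the eye, 0.19 for the lung and 0.04 for the testicle, and the median SE of a member was 0.28, 0.53 and 0.31. A change of 2-fold would often have been missed in the lung: in simulated counts 24.5% of such changes were recovered there, against 68% for the eye and 50% for the testicle.

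The lowest unadjusted p belonged to miR-341-3p in the testicle. It stood at 4.29, 6.85 and 6.76 CPM in the left libraries and 24.3, 21.7 and 15.2 in the right ones, without overlap (log2 fold change -1.54, SE 0.31, edgeR p 0.0018, adjusted p 0.57). In the eye it stood at 81.1, 168 and 113 CPM on the left and 242, 141 and 195 on the right, and these overlapped (-0.66, SE 0.29, adjusted p 0.98). Over the 3 organs its log2 fold change was -0.66 (SE 0.31, adjusted p 0.77). The other eye members at an unadjusted p under 0.05 were miR-299a-3p (-0.74, SE 0.28) and miR-1193-3p (0.56, SE 0.24), both with an adjusted p of 0.98. In the lung the lowest p belonged to miR-377-3p (1.0, SE 0.54, adjusted p 0.90).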

How the data were processed

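Each library came as a deposited table of raw whole-number counts, 1 value per mature miRNA. The submitters' processing notes name the build GRCm38.p6. RNA was isolated on spin columns and libraries followed the BGI-500 procedure, per the labels' protocols. The aligner is not given in the sources used here, nor is the counting program, the handling of reads that fit several names or any molecular identifier. Members and lists were chosen with earlier results of these data known.

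Counts were tested in edgeR 4.0.16 (R 4.3.3) with TMM scaling, the filterByExpr filter by group and the robust quasi-likelihood test, in 1 fit of 6 groups for the 3 organ pairs, with Benjamini-Hochberg adjustment over all tested miRNAs at 0.05. A fit without the filter gave the counts over 78 members. Nothing in the labels says whether replicates are separate animals, so p-values may measure technical spread. Arm ratios used log2((5p + 0.5)/(3p + 0.5)) per library. A count of 0 was set to a floor of 3 counts, and intervals are 95% exact. Intervals and floors cover counting error only. CPM beside floors use library totals. Hairpin positions and sequences came from RefSeq tables, overlapping genes from GENCODE M21.

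Members are named by a rule: per organ the 8 with the highest mean CPM; per organ pair the 5 called with the largest fold among those with 50 CPM and no overlap; the 6 most abundant without a call between eye and testicle; the 3 with the lowest p per left-right comparison; up to 5 hairpins with a called arm difference; and members that share a seed. MiR-134-5p, miR-485-5p, miR-770-5p, miR-758-3p, miR-323-5p, miR-409-5p, miR-412-3p and miR-3072-3p were added after their values were seen.

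The alternatives were other scalings (RLE, upper quartile, totals, other TMM references), other filters, DESeq2 1.42.0, a replicate block, each side alone, each library left out, and other arm measures. In simulated counts on 642 miRNAs edgeR recovered 64.6% of 2-fold and 91.7% of 4-fold changes between eye and lung, with 1.50% of calls false. For 4-fold arm shifts the log2 ratio recovered 78.3% to 86.7%, with 14.5% to 18.8% of calls false, and the percent measure 83.7% to 90.9%, with 13.0% (eye and lung), 4.88% (eye and testicle) and 2.70% (lung and testicle) false.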

Additional observations from a re-analysis of the deposited data

Results flagged for a closer look

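In 7 of the 76 sets of 6 libraries tested, a member's highest or lowest library stood apart from the other 5 by more than Dixon's 95% critical value, a gap that chance gives in about 5 percent of sets. In the lung left lung 2 was the high library each time: miR-381-3p at 58.69 CPM (9.65 to 26.3 in the others), miR-154-5p at 106.69 CPM (36.17 to 61.96), miR-154-3p at 6.73 CPM (1.82 to 3.52) and miR-409-3p at 18.04 CPM (10.17 to 12.92). In the eye miR-495-3p stood at 288.19 CPM in right eye 1, against 135.6 to 157.77 in the others. In the testicle miR-487b-3p stood at 11.21 CPM in left testicle 2 (7.73 to 8.59 in the others), and miR-154-3p at 4.29 CPM in left testicle 1 (16.19 to 20.55). All values are TMM-scaled.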

How the results depend on the processing

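Between eye and lung, no alternative run called a member lower in the eye. Against the testicle 1 member, miR-496a-3p, was called lower with a filter of 50 counts in 6 libraries and without right eye 3, left lung 1, left lung 2, right lung 1 or right lung 2. That filter tested 26 members. It gave 26 calls between eye and lung, 20 between eye and testicle, 24 between lung and testicle and 19 eye-enriched members. The share of all miRNAs called with that filter is not given here. Upper quartile scaling gave 24 calls between lung and testicle, 22 lower and 2 higher in the lung. Of all 642 tested miRNAs it called 227 lower and 273 higher. For arms between eye and lung, a pseudocount of 5 gave 10 hairpins, the percent measure 2 and a minimum of 10 counts on both arms 0 of 2, while that minimum gave 1 of 1 between eye and testicle and 0 of 1 between lung and testicle.

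Leaving out each library gave 55 to 57 calls between eye and lung, 39 to 42 between eye and testicle, 33 to 46 between lung and testicle, 37 to 41 eye-enriched members and 0 between sides. Shares over all miRNAs are not given for these runs, so the ranges show how stable the counts were and no excess over the background. Called arm ratios ranged from 2 to 6 between eye and lung, 7 to 10 between eye and testicle and 2 to 5 between lung and testicle. The value of 2 came without left eye 1 or left eye 2, and, between lung and testicle, without left testicle 3, right testicle 1 or right testicle 3.

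Between eye and testicle the sign of uncalled members turned. MiR-376c-3p was at -0.02 with the filter of 50 counts and -0.07 on the right side alone. MiR-541-5p was at 0.22 with upper quartile scaling, 0.14 with library totals and 0.41 with left lung 1 as the reference. MiR-496a-3p was at 0.18 with that reference. MiR-409-3p was at -0.01 with left testicle 1 as the reference, -0.13 with the filter of 50 counts and -0.08 on the right side alone, and at -0.12 to 0.26 with each library left out. The arm difference of miR-412 was at 0.04 with a pseudocount of 5. Between lung and testicle, upper quartile scaling turned miR-369-5p to 0.08 and miR-154-5p to 0.44. The cause was not tested.

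Same-numbered left and right libraries of an organ correlated at -0.404 to 0.352 (median 0.0129), over 0.1 in 4 of 9 pairs against 2 of 18 pairs with different numbers, and 9 of 18 libraries correlated best with their own number. The 4 same-numbered pairs over 0.1 were lungs 1 (0.154) and 3 (0.352) and testicles 1 (0.223) and 3 (0.108). Lungs 2 stood at 0.000731 and testicles 2 at 0.0129. Same-numbered eyes were at -0.0856, -0.404 and -0.0807, and the 2 pairs with different numbers were both eyes (0.32 and 0.282). Left and right testicle 1 also shared low red cell sums, given above. As not every pair was over 0.1, the numbers were not taken to pair the samples in any organ. Pairing of lungs and testicles alone was not tested. With the replicate block, 55, 42 and 43 members were called between eye and lung, eye and testicle, and lung and testicle, and 0 between sides. The share of all miRNAs called with the block is not given here. Testicle totals, at 952608 to 1893132 counts, limit the rarer members most.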
